A study of Mus musculus with 36 samples.

Results

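The genes of hepatic insulin signalling and glucose output were followed through a survey of trimethylated lysine 9 of histone H3 (H3K9me3) in mouse liver. The set holds 9 genes: the insulin receptor gene Insr, its docking proteins Irs1 and Irs2, the kinase Akt2, the transcription factor Foxo1, the gluconeogenic enzyme Pck1, the glycolytic enzyme Pklr, the binding protein Igfbp1 and the glycogen-targeting subunit Ppp1r3b. Members were the rows whose nearest-gene symbol, as assigned by the authors, equals one of these names. The rows are bins, pieces of at most 501 bp of a broad H3K9me3 peak. Of 414426 distinct bins in the 6 deposited tables of comparisons, 197 carried one of the 9 symbols.

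The livers came from male and female offspring of dams kept on a Western-style diet (maternal obesity, MO) or on chow before mating, through gestation and through lactation. Livers were taken in the fed state at 3 weeks, before weaning, or at 8 weeks, once the weaned offspring had eaten chow for some weeks. The groups are control females (CF), control males (CM), MO females (MF) and MO males (MM), at 3 and 8 weeks each, with 4 ChIP libraries a group, 32 in all, beside 4 input libraries. Per the methods of the study the offspring were on a C57BL/6J background and carried at least 1 floxed Reg3g allele in every group, controls included, and no Cre line is named. The material was whole liver, so a change in the mix of cells and a change per cell cannot be told apart. No expression was used here, and a repressive mark does not identify cells. Of 8 genes typical of hepatocytes, 5 or 6 had a bin under their symbol in each table, at any distance. The share over all genes was not computed.

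Insulin binds its receptor on the hepatocyte, the receptor phosphorylates the docking proteins IRS1 and IRS2, and through PI3-kinase these activate AKT2. AKT2 keeps the transcription factor FOXO1 out of the nucleus, which lowers transcription of gluconeogenic genes such as Pck1 and of Igfbp1. H3K9me3 is a mark of heterochromatin that is dense over repeats and transposable elements and is found with silenced transcription.

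The value read for each bin is the average log2 CPM, a read count scaled to library size, on a log2 scale, that the authors' software pooled over all libraries of the 2 groups a table compares. It is the authors' mean, with no error and no value per library, so every level and difference below is a description without a test. The tables were normalised separately. A level is therefore also given as its percentile among all bins of its own table. Depth per library was not analysed here.

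The 9 genes were not equally covered. Control females had 48 member bins and control males 71. Over the other tables the count was 65 in females at 3 weeks, 41 in females at 8 weeks, 78 in males at 3 weeks and 37 in males at 8 weeks. Insr, Akt2, Foxo1, Pck1 and Ppp1r3b held most of them, with 11, 9, 6, 7 and 8 bins in control females and 13, 14, 12, 9 and 10 in control males. Irs1 had 2 and 3, Pklr 4 and 5, and Igfbp1 1 and 3. Irs2 had 0 in control females and 2 in control males. Each bin stands for a different peak, since each table lists 1 bin a peak. How that bin was chosen is not given in the sources used here, and for a long peak it differed between tables, so the level of a long peak is that of the listed bin alone. Many assignments are remote: 27 of the 48 bins in control females and 40 of the 71 in control males lay in the gene or within 10 kb of its start.

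**Figure D1:**
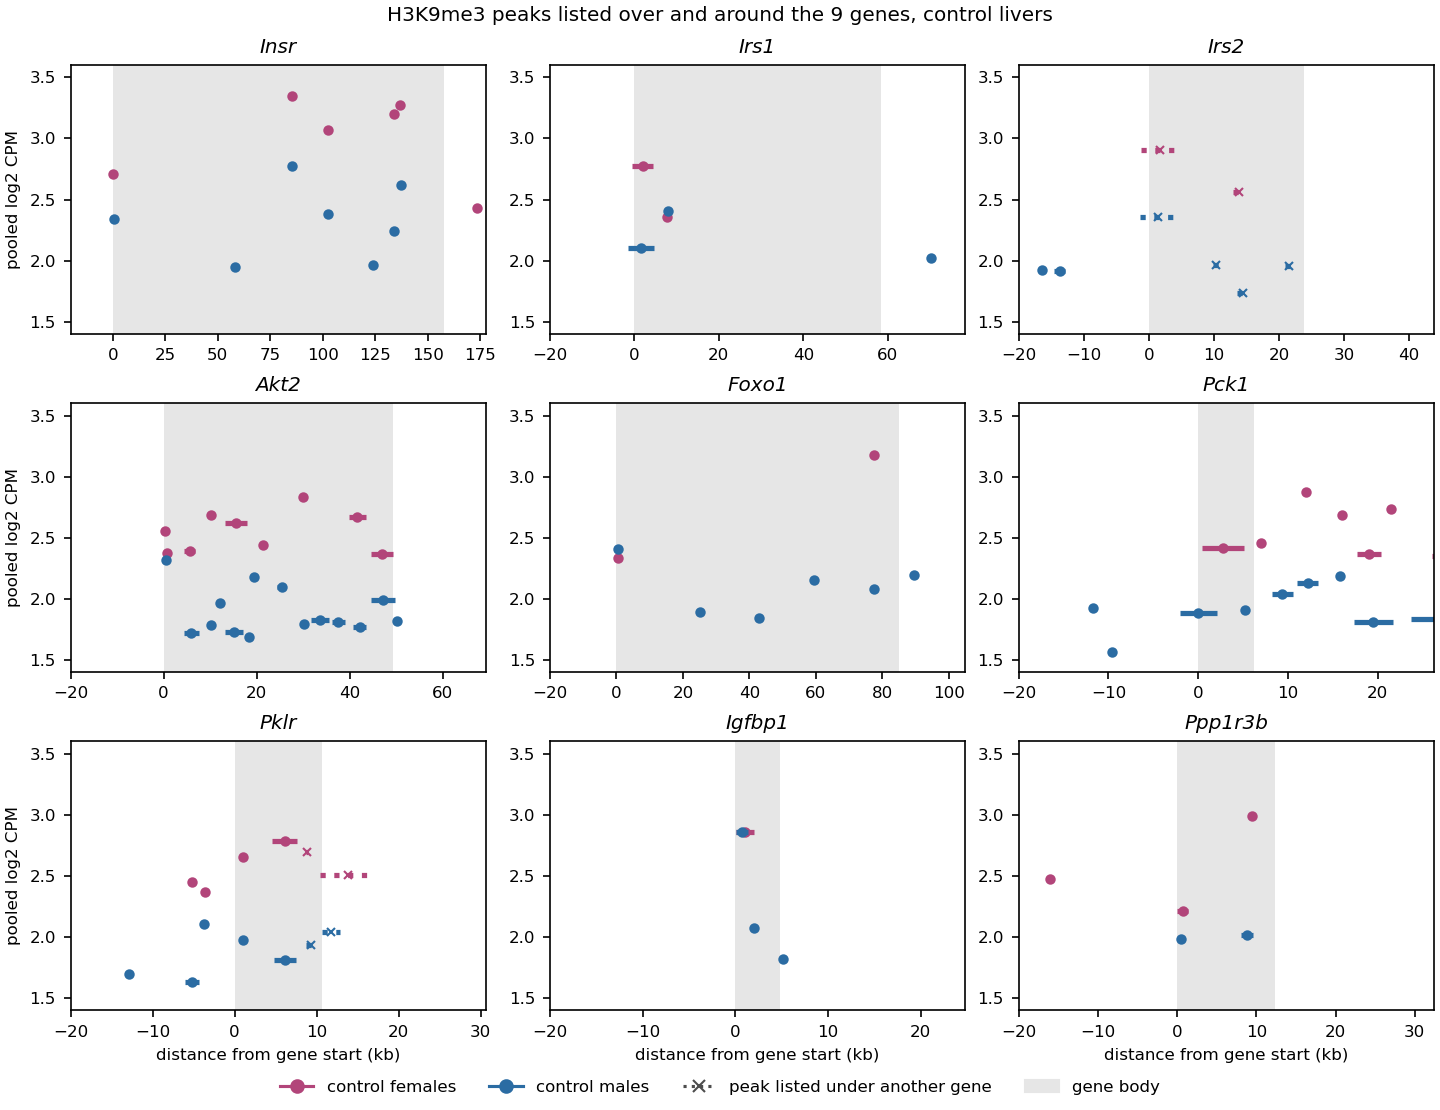
H3K9me3 peaks over the 9 genes in control livers, as distance from the gene start in kb (positive into the gene) against the pooled log2 CPM of the listed bin. Horizontal bars span the peak, points mark its centre, the grey area is the gene body, and dotted bars with crosses are peaks listed under another gene, which include the peaks over Irs2; bins farther than 20 kb from the gene are not drawn.

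Of the stretches printed next, that of Insr comes from the bin with the highest level among members in control females. The others are the bases before the starts of Foxo1 and Irs1 and the first intron of Pck1, each inside a listed peak. All stretches are from GRCm38, on the strand of the gene, 5′ to 3′, with exons left out and each CpG in capitals. They span chr3:52268164-52268335 (plus strand), chr1:82291417-82291716 (minus strand), chr2:173153172-173153347 (plus strand) and chr8:3194372-3194671 (minus strand). The Pck1 stretch lies under a peak in males only, in a bin at percentile 0.091 at 8 weeks. The Foxo1 bin was at percentile 6.31 in control females. The Irs1 stretch lay in bins at percentile 65.5 in control females and 5.14 in males at 8 weeks.
Foxo1: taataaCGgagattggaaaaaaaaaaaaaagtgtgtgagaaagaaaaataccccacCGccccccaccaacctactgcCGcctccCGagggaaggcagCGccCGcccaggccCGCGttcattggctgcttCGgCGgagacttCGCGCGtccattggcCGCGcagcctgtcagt
Irs1: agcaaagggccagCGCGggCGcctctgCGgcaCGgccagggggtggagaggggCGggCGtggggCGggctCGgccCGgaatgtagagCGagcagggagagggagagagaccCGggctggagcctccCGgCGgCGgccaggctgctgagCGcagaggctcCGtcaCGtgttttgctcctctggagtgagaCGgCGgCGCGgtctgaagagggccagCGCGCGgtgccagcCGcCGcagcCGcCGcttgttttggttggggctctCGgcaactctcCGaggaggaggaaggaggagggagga
Pck1: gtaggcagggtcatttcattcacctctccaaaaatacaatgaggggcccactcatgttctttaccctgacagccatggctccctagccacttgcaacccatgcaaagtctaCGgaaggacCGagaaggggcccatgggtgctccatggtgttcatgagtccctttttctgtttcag
Insr: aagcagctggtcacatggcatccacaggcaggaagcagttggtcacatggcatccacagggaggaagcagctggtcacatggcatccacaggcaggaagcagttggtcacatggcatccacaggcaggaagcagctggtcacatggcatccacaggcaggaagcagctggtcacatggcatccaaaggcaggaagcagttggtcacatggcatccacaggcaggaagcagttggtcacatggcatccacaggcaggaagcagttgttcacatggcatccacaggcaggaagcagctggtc

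The 172 bases before Foxo1 hold 15 CpG and the 300 bases before Irs1 hold 31, which is 1.04 and 0.855 of the number their C and G content would give. The 176 bases of Pck1 hold 2, a ratio of 0.172. The Insr stretch holds 0 and so shows no capitals. It is a tandem array: over the whole bin, chr8:3194293-3194671, 86.7% of bases equal the base 32 positions further on. Of the 120683 bins in control females, 0.424% reach 80% at a period between 10 and 60 bases, and this Insr bin is the single one among the 48 member bins that does. In control males the overlapping Insr bin has the same period, with a match of 82.1%, and a second Insr bin, chr8:3176388-3176888, reached 82.7% at a period of 10. How reads that map to several places were counted is not given in the sources used here.

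Bins listed under Insr, the gene of the receptor itself, had the highest levels of the 9 in control females. Only 5 of the 11 Insr bins in control females and 7 of 13 in control males lay inside the gene. The farthest in control females lay 101 kb beyond its end. Its bins ran from 2.43 to 3.35 with a median of 3.03 log2 CPM, against 2.65 over all bins of that table, and 4 of its 11 bins were past the 90th percentile where 1 of the 37 bins of the other members was. In control males the Insr bins ran from 1.72 to 2.95 with a median of 2.25, against 2.10 over all bins, and 4 of 13 passed the 90th percentile against 3 of 58. The tandem array lies 84.9 kb into the gene, and within 3 kb of the start of a shorter annotated transcript. It stood at 3.35 in control females (percentile 96.6), 3.21 in females at 3 weeks (99.2) and 3.10 in females at 8 weeks (87.7). Its male counterpart, chr8:3194316-3194721, stood at 2.78 in control males, 2.70 in males at 3 weeks and 3.47 in males at 8 weeks. The highest Insr bin of control males lay 26.8 kb before the gene, chr8:3306403-3306903, at 2.95 in control males, 2.76 at 3 weeks and 3.66 at 8 weeks.

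The strong Insr bins of the control tables lie on repeats. In control females 9 of 11 Insr bins were soft-masked, meaning marked as repeats in the reference, over more than 50% of their length, with a median level of 3.07. The remaining 2 stood at 2.43 and 2.71. In control males 9 of 13 were masked, with a median of 2.38 against 1.96 for the remaining 4. The share of such bins over the whole table was 23.6% for control females and 21.3% for control males. Among the members other than Insr it was 5.41% and 5.17%. Over all bins, masked ones also had the higher median, 2.81 against 2.62 in control females and 2.24 against 2.07 in control males. The members other than Insr went the other way, with 2 masked bins at a median of 2.46 against 2.58 in control females and 3 at 1.81 against 2.01 in control males. For Insr in females at 8 weeks the masked median was 2.89 and the single remaining bin stood at 2.88. The part of mapping in the Insr levels was not tested.

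**Figure D2:**
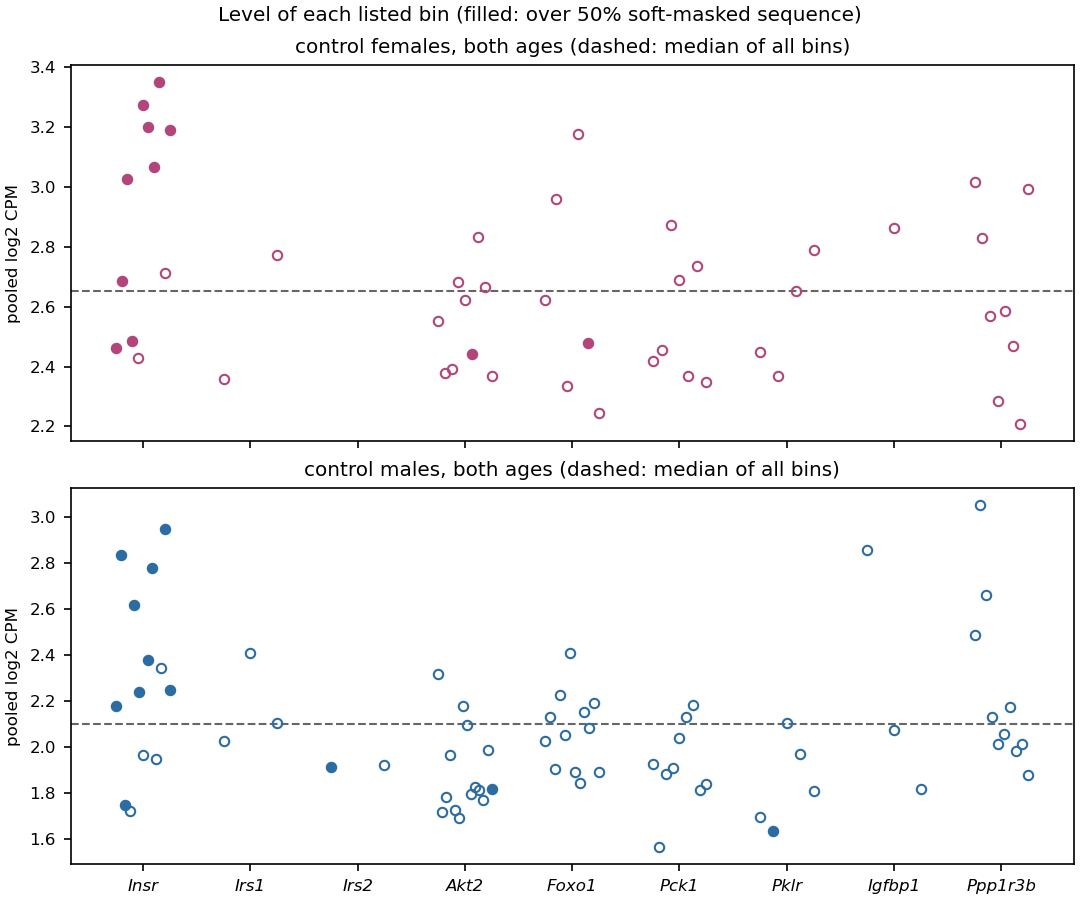
Pooled log2 CPM of each member bin in control females (top) and control males (bottom), both ages, by gene, in order of position. Filled points are bins soft-masked over more than 50% of their length and the dashed line is the median of all bins; Insr holds 4 of the 5 female and 4 of the 7 male member bins past the 90th percentile of all bins, each of them filled.

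The start of Insr was covered as well. A peak of 1988 bp in females, chr8:3278529-3280516, and one of 1240 bp in males, chr8:3278460-3279699, spanned it in every table of the sex. The bin listed for it in the control tables is free of masked bases and GC-rich, with a GC content of 69.1% in females and 67.1% in males. Its level was 2.71 in control females (percentile 58.3) and 2.34 in control males (75.1). The male bin, chr8:3278960-3279460, stood at 2.03 in males at 3 weeks and 2.80 at 8 weeks.

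Of the docking proteins, Irs1 had a long peak over its start, 5020 bp in females (chr1:82286913-82291932) and 6100 bp in males (chr1:82286788-82292887). The bin listed for this peak differed between tables. In control females it was the bin at the start itself, at 2.77 (percentile 65.5), and in control males a bin 2.63 kb into the gene, at 2.11 (50.6). At other bins of the peak the level was 2.13 in females at 3 weeks (9.06) and 2.56 at 8 weeks (40.6). In males it was 1.82 at 3 weeks (19.5) and 2.37 at 8 weeks (5.14). A second peak lay in an intron, 7.64 kb from the gene start, in males, chr1:82283276-82283776, at 2.41 in control males, 1.96 in males at 3 weeks and 3.09 at 8 weeks. The overlapping female bin, chr1:82283423-82283833, stood at 2.36 in control females (percentile 8.24) and 2.71 in females at 8 weeks (59.2). Another Irs1 bin, 70.2 kb from the start and beyond the gene, was at 2.02 in control males (percentile 40.3).

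Irs2 shows what a nearest-gene symbol can miss. Its 2 listed bins were in male tables, 14.3 and 16.3 kb before the gene, in an intron of another transcript, at 1.91 and 1.92 in control males and at 1.71 and 1.82 in males at 3 weeks. The gene itself was nonetheless marked. A peak of 5793 bp in females, chr8:11003803-11009595, and of 5396 bp in males, chr8:11004391-11009786, covered the start of Irs2 in all 6 tables, but its bins carry the symbol of 9530052E02Rik, a neighbouring transcript that starts close to Irs2. The level was 2.90 in control females (percentile 78.2) and 2.35 in control males (76.1). It was 2.40 in females at 3 weeks (49.5), 2.29 in females at 8 weeks (7.66), 2.22 in males at 3 weeks (72.7) and 2.58 in males at 8 weeks (27.9), each read at a different bin of the peak. Further peaks inside or within 3 kb of Irs2 under that symbol raise the number to 2 bins in control females, 4 in control males and 5 in males at 3 weeks. These bins fall outside the rule for members, were sought after the values were seen, and enter no count of member bins. The search found such bins for 1 other gene: Pklr, where an exonic bin, chr3:89144848-89145091, was listed under Hcn3 at 2.70 in control females.

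Akt2, the kinase through which insulin acts on glucose handling in liver, carried its mark along the whole gene, with 9 of 9 bins in control females and 13 of 14 in control males inside it. In the control tables levels were low to middling, with a median of 2.55 (percentile 34.7) in control females and 1.81 (13.7) in control males. No listed peak covered its first base. The nearest bins began 0.151 kb into the gene in females, chr7:27591703-27592077, and 0.252 kb in males, chr7:27591804-27592164, with a GC content of 75.2% and 75.9%. They stood at 2.55 and 2.32 in the control tables, and the male bin at 2.15 at 3 weeks and 3.06 at 8 weeks. The highest Akt2 bin in control females was intronic, chr7:27621183-27621683, at 2.83, and stood at 2.76 (percentile 88.0) in females at 3 weeks. The highest in males at 3 and 8 weeks, chr7:27636160-27636660, stood at 2.45 (90.5) and 3.31 (91.4). Peaks in the gene were long, up to 4761 bp in females and 5042 bp in males.

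Foxo1 was marked at its start and at its far end. A peak of 2401 bp in females and 2416 bp in males covered the start in all 6 tables, and the bin listed for it stood at 2.33 in control females (percentile 6.31) and at 2.41 in control males (80.2). The highest Foxo1 bin in control females and in females at 3 weeks lay in exon 2, 77.3 kb into the gene, chr3:52345675-52346150, at 3.18 in control females (92.8), 2.95 at 3 weeks and 2.96 at 8 weeks. At 8 weeks a bin 71.9 kb before the gene, chr3:52195984-52196407, stood slightly above it in females, at 3.00. The overlapping male bin of exon 2, chr3:52345520-52346020, was at 2.08 in control males and 2.35 at 3 weeks. Most other Foxo1 bins lay in neighbouring transcripts or between genes, 2 of 6 in control females and 5 of 12 in control males being inside the gene.

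The gluconeogenic gene Pck1, which encodes cytosolic phosphoenolpyruvate carboxykinase, differed between the sexes in which peak was listed at its start. In males a peak of 4122 bp, chr2:173151015-173155136, covered the start in all 3 tables. The bin listed for it stood at 1.88 in control males (percentile 21.6), 1.77 at 3 weeks (14.3) and, at another bin, 2.13 at 8 weeks (0.091). In control females and in females at 8 weeks the nearest listed peak, of 4650 bp, began 0.469 kb after the start, and its bin chr2:173153517-173154017 stood at 2.42 in both tables (percentiles 14.9 and 21.1). At 3 weeks no female bin was listed in the gene. Most Pck1 bins lay downstream, up to 31.7 kb from the start, in peaks as long as 8881 bp in females and 11645 bp in males. The highest in control females was chr2:173164711-173165211, 11.7 kb from the start, at 2.87, and it stood at 2.57 at 3 weeks and 2.85 at 8 weeks in females. Whether a peak is listed also depends on the authors' filters, so the difference at the start was not tested.

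Pklr encodes the liver form of pyruvate kinase. Its nearest bin, chr3:89136895-89137395 in females, stood at 2.65 in control females, 2.24 at 3 weeks and 2.74 at 8 weeks, and the male bin, chr3:89136761-89137261, at 1.97 in control males. The highest bin in control females was exonic, chr3:89141252-89141752, 5.11 kb into the gene, at 2.79. In control males the highest bin lay 3.53 kb before the gene, at 2.10.

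Igfbp1 encodes an insulin-like growth factor binding protein that insulin represses through FOXO1. The peak nearest its start began just inside the gene in both sexes. In females a peak of 1970 bp started 0.067 kb after the start, and its first bin, chr11:7197849-7198349, stood at 2.86 in control females (percentile 74.7), 2.63 at 3 weeks (78.1) and 2.92 at 8 weeks (77.5). In males a peak of 1239 bp started at 0.1 kb, and its first bin, chr11:7197882-7198382, stood at 2.86 in control males (96.5), 2.27 at 3 weeks (78.1) and 3.07 at 8 weeks (81.0). The control male table was thus the one in which this bin ranked highest. In females at 3 weeks another bin was listed 3.4 kb before the gene, chr11:7193882-7194382, at 2.30 (32.6).

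The 250 bases before the RefSeq start of Igfbp1, chr11:7197537-7197786 on the plus strand (RefSeq, GRCm38.p6), are shown since they lie directly before that peak and hold 1 copy of CAAAACAA, a core of the insulin response element, in capitals.
Igfbp1: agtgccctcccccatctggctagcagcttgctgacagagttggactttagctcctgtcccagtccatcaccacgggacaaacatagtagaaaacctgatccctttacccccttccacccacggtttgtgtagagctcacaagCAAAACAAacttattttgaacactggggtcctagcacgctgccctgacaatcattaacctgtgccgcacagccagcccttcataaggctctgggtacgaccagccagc

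The motif, searched as CAAAACAA or its complement TTGTTTTG on both strands, was present in 2.21% of 32851 RefSeq promoter windows of 250 bases. It also occurred in 1 copy each before Irs1 and Irs2 and was not found in the windows of Akt2, Foxo1, Pck1 and Pklr. Copies farther than 250 bases upstream and inexact copies were not sought, so a gene without a match may still hold the element. Insr and Ppp1r3b had no entry. The windows of Irs1, Irs2 and Foxo1 lay under listed peaks over all 250 bases in the 6 tables, that of Pck1 in the 3 male tables, and those of Akt2, Pklr and Igfbp1 in 0 of 6. A match is a description of the letters and says nothing of binding.

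Ppp1r3b encodes the subunit that brings protein phosphatase 1 to liver glycogen. Its peak nearest the start, 1344 bp in females and 925 bp in males, began 0.045 and 0.085 kb into the gene and was not listed in females at 8 weeks. The bin listed for it stood at 2.21 in control females (percentile 0.996) and 1.98 in control males (34.4). A bin in the 3′ untranslated exon, chr8:35384901-35385390, stood in females at 2.99 (84.5) in controls, 2.55 (69.9) at 3 weeks and 2.61 (47.9) at 8 weeks. The overlapping male bin, chr8:35384862-35385300, was at 2.01 (39.0) in control males. In males at 3 and 8 weeks that peak was listed at another bin, chr8:35383862-35384362, at 2.40 and 2.80, so the sexes cannot be ranked here. In the control tables its highest bins lay in an exon of a noncoding transcript 192 kb before the gene, chr8:35183257-35183757 in females at 3.02 and chr8:35183246-35183746 in males at 3.05. In females at both ages and in males at 8 weeks the highest was an intergenic bin 187 kb before the gene, at 2.68, 2.90 and 3.07. Of its bins 2 of 8 in control females and 2 of 10 in control males were inside the gene.

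Over all 9 genes the median level was 2.62 log2 CPM in control females, against 2.65 over all bins, and 2.01 in control males, against 2.10. Promoters, within 3 kb of a start, held 29.2% of member bins against 21.1% of all bins in control females, and 23.9% against 20.3% in control males. At 3 weeks the shares were 16.9% against 20.0% in females and 23.1% against 19.7% in males, and at 8 weeks 31.7% against 21.0% in females and 37.8% against 22.9% in males. Of the control female peaks, 39 of 48 touched a control male peak, against 78.3% of all. Of the control male peaks, 38 of 71 touched a female one, against 65.9% of all.

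The first contrast asked how the mark at these genes compares between 8 and 3 weeks in each sex, MO and control livers together. It sets the table of both diets at 8 weeks against the table of both diets at 3 weeks, which share no library, over bins with the same coordinates. The raw difference had a median of 0.23 over 76657 bins in females and 0.63 over 69096 bins in males, and all differences given next are relative to it, since the tables were normalised separately. A difference was counted past 1.5-fold, or 0.58 on the log2 scale.

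Few bins differed by that much between ages, among the members as among all bins. In females 1 of 25 member bins was higher at 8 weeks past 1.5-fold, where 2.75% of all bins were, and 0 of 25 were lower, against 1.3% of all. In males 0 of 26 were higher, against 3.31% of all, and 0 were lower, against 1.67% of all. Without centring 16 of 26 male bins were higher, against 56.8% of all. The median over member bins was -0.09 in females and 0.12 in males, with a robust SD of 0.27 and 0.29 over all bins. Each of these medians changed sign under an alternative given in the closing section. Between the 5th and 95th percentile of all bins lay 23 of 25 member bins in females and 22 of 26 in males. These counts cover bins that passed the authors' filter at both ages. Irs2 had 0 such bins in both sexes, and Pck1 had 0 in males.

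The female bin past 1.5-fold belonged to Insr. It lies 56.0 kb beyond the end of the gene, chr8:3065570-3066070, in sequence that is 79.0% soft-masked, and stood at 2.503 at 3 weeks and 3.35 at 8 weeks, a centred difference of 0.62 or 1.54-fold. Over all female bins the difference between ages moved with level, from a median of -0.09 in the lowest decile to 0.26 in the highest. Centred within deciles of level, an alternative added after seeing the data, this bin was at 0.51 and no longer past the threshold. The overlapping male bin, chr8:3065519-3066011, went from 2.51 to 3.73, a centred difference of 0.58 or 1.498-fold, just short of the threshold, and at 0.35 within deciles of level. Females and males share no library, but both bins are named because they held the highest member value of their sex. Their match is therefore no separate support, and it was not tested. The 2 neighbours on this stretch were at 0.25 and -0.10 in females and at 0.44 and 0.28 in males. Inside the gene the direction was mixed. The intronic bin chr8:3142444-3142935 was lower at 8 weeks in females, 2.89 against 3.18 and -0.52 after centring, whereas its male counterpart, chr8:3142406-3142876, was at -0.01. Within deciles of level that female bin was at -0.78, past 1.5-fold. The tandem array was at -0.34 in females, or -0.60 and past 1.5-fold within deciles of level, and at 0.14 in males. An intronic bin 103 kb into the gene was at 0.24 in females, and its overlapping male bin at -0.46.

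**Figure D3:**
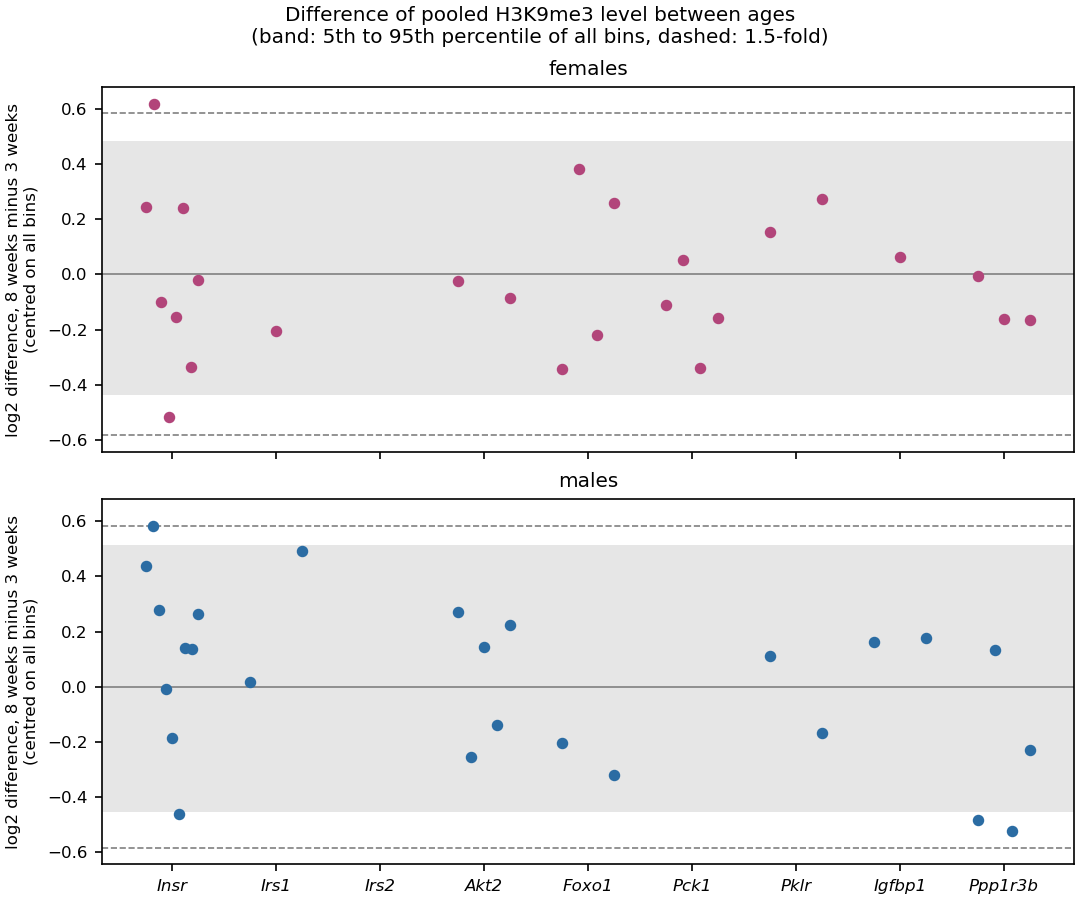
Difference of the pooled log2 level at 8 weeks from that at 3 weeks, centred on the median of all shared bins, for each member bin in females (top) and males (bottom). The grey band holds the 5th to 95th percentile of all shared bins and dashed lines mark 1.5-fold; 1 female Insr bin, at 0.62, lies beyond them.

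Igfbp1 varied little with age at its first bin, 0.06 in females and 0.16 in males. The intronic Irs1 bin in males was at 0.49, the second highest male value, and no female Irs1 bin in that intron was listed with identical coordinates at both ages. The first Akt2 bin was at 0.27 in males. Pklr was at 0.27 at its nearest bin in females. The remote Foxo1 bin 80.6 kb before the gene was at -0.35 in females and -0.21 in males. Ppp1r3b bins were mostly below 0, 3 of 3 in females and 3 of 4 in males, with the lowest male value of all members, -0.52, at chr8:35201600-35202100, a bin 174 kb before the gene, which stood at 0.11 without centring. Of 10 member bins that overlapped between the sexes by at least 50% of each, 6 had the same sign in both, against 64.6% of 32632 such pairs over all genes. Most of the 10 were Insr bins, so the count is largely that of 1 gene.

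Listing itself also differed by age. Of 65 member peaks listed in females at 3 weeks, 35 (53.8%) were also listed at 8 weeks, against 73.0% of all peaks. In males 37 of 78 (47.4%) were, against 60.7%. Taking the share of all peaks at the same decile of 3-week level would give 68.4% and 59.1%. By gene, Insr kept 9 of 10 in females and 9 of 12 in males, Irs1 2 of 2 and 3 of 3, Foxo1 5 of 12 and 4 of 15, Akt2 5 of 12 and 7 of 16, and Ppp1r3b 4 of 13 and 6 of 13. The lowest level listed was 1.64 at 3 weeks and 1.78 at 8 weeks in females and 1.18 and 1.93 in males, so the tables do not share a floor, and the part of this in the shares was not tested.

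The second contrast asked how the mark compares between MO and control offspring. The level with MO over both ages was derived on the linear CPM scale as the 3-week level plus the 8-week level minus the control level of the age table, and set against that control level. The log2 ratio had a median of -0.24 over 66676 bins in females and 0.44 over 60699 in males, and values are again relative to it. The control level enters both sides of the ratio. Over all bins the median ratio was 0.16 in females and 0.17 in males in the lowest decile of control level, -0.07 and -0.06 in the eighth, and -0.00 and 0.01 in the highest. These libraries are the ones used for age, so both sets of values are not independent.

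With MO, 1 of 21 member bins in females was lower past 1.5-fold, where 1.4% of all bins were, and 0 were higher, against 0.519%. Centred within deciles of control level, 2 of 21 were lower, against 0.97% of all, the second being a Pck1 bin. In males 1 of 20 was lower, against 0.252% of all, and 0 were higher, against 0.155%. The median over member bins was -0.13 in females and 0.07 in males, with a robust SD of 0.25 and 0.21 over all bins.

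The male bin was the first bin of Igfbp1, chr11:7197882-7198382. Its control level was 7.25 CPM and its derived MO level 5.98 CPM, and after centring MO was at -0.72, or 1.65-fold lower, at percentile 0.0264 of all male bins. Without centring it was at -0.28, which is not past the threshold. The overlapping female bin had 7.27 CPM in controls and 6.47 CPM with MO, and was at 0.08 after centring. A second Igfbp1 bin in males, 1.82 kb into the gene, was at 0.09. The difference at the first bin between the sexes was not tested.

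The female bin was the 3′ untranslated bin of Ppp1r3b, chr8:35384901-35385390, with 7.96 CPM in controls and 4.03 CPM with MO, -0.74 after centring or 1.67-fold lower. The male peak there was listed through different bins in different tables and gave no ratio. Other Ppp1r3b bins, 173 to 204 kb before the gene, were at -0.40 and 0.17 in females and at -0.36, -0.30 and -0.04 in males. In both sexes Ppp1r3b thus had the lowest or the second lowest value among the members.

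**Figure D4:**
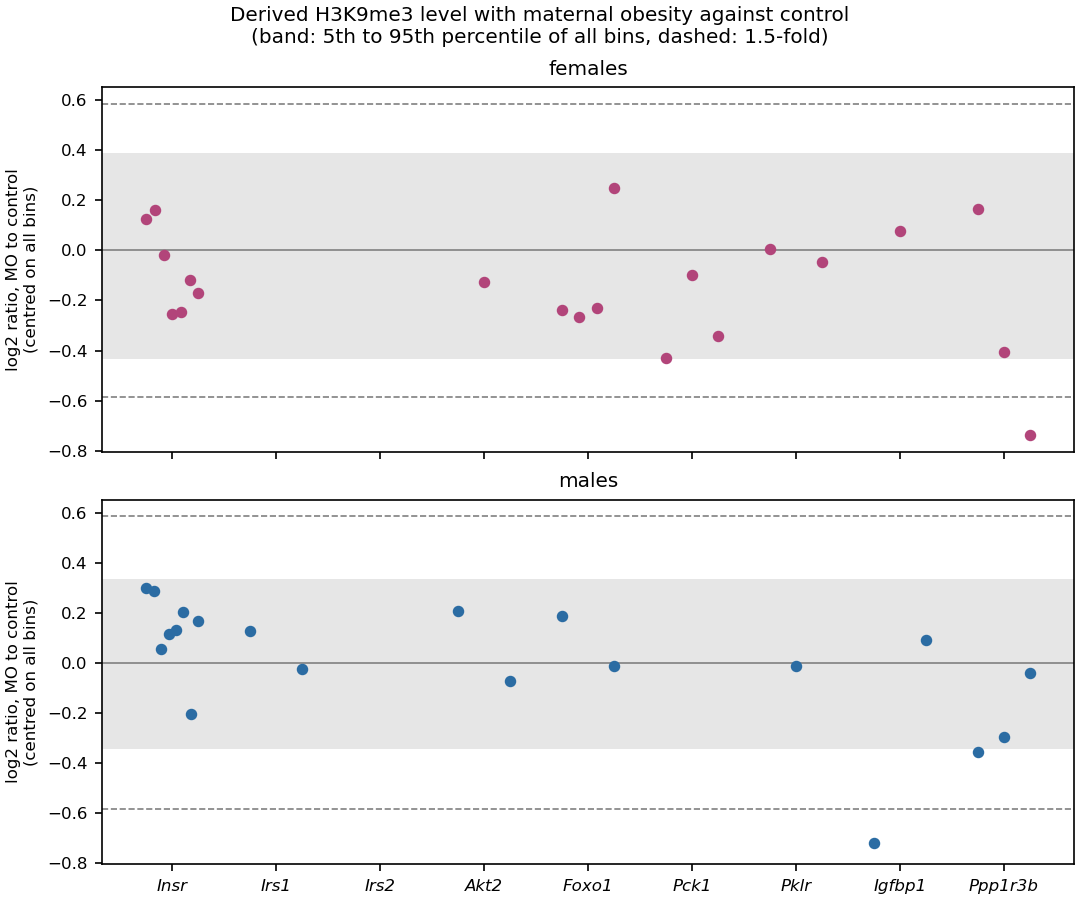
Log2 ratio of the derived MO level to the control level over both ages, centred on the median of all shared bins, for each member bin in females (top) and males (bottom). The grey band holds the 5th to 95th percentile of all shared bins and dashed lines mark 1.5-fold; a Ppp1r3b bin in females and the first Igfbp1 bin in males lie below them.

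Elsewhere the ratios were smaller. The Insr bins ran from -0.25 to 0.16 in females, 5 of 7 below 0, and from -0.20 to 0.30 in males, 7 of 8 above 0. The lowest male Insr value was at the bin of its start. The Pck1 bins in females were at -0.43, -0.10 and -0.34, the first of them, chr2:173159882-173160106, at -0.59 within deciles of level, and Foxo1 ran from -0.27 to 0.25. The first Akt2 bin was at 0.21 in males. The intronic Irs1 bin was at -0.02 in males, and the nearest Pklr bin at -0.05 in females. Of 9 overlapping pairs of member bins, 2 had the same sign in females and males, against 52.8% of 29160 pairs over all genes. Most of the 9 pairs were Insr bins, and Akt2, Irs1, Irs2, Pck1 and Pklr gave none, so the count is largely that of 1 gene.

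The wider pathway was read from 8 lists holding 88 genes beside the members, of which 78 to 81 had a bin in each table. Between ages 5 of 329 bins in females were higher and 3 lower past 1.5-fold, and 6 of 288 higher and 10 lower in males, with medians of -0.04 and -0.03. Over all bins 2.75% were higher and 1.3% lower in females, and 3.31% and 1.67% in males. With MO the counts were 1 higher and 3 lower of 281 in females and 0 higher and 1 lower of 246 in males, with medians of -0.01 and -0.02, where 0.519% and 1.4% of all female bins and 0.155% and 0.252% of all male bins were. By list, the median age difference ran from -0.14, for gluconeogenesis and glucose output and for the glucagon arm, to 0.04, for glycogen and for insulin targets and IGF binding, in females. In males it ran from -0.07, for FOXO and transcription, to 0.09, for insulin targets and IGF binding. No gene of the lists had overlapping bins past 1.5-fold in the same direction in both sexes, for age or for MO.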

How the data were processed

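H3K9me3 levels in liver were taken from the 6 comparison tables. The methods of the study state that the authors aligned reads to mm10/GRCm38, called broad peaks with MACS2, merged consensus peaks per sex, cut long peaks into bins, counted with featureCounts and annotated with ChIPseeker. The deposited level is the authors' average log2 CPM, pooled over the libraries of both groups of a table. The tables also hold the authors' fold changes, p-values and FDRs, which were not used here.

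From the levels, differences between tables over identical bins were computed, centred on the median of all shared bins and counted past 1.5-fold. The arithmetic was tested on simulated data. No test was run, since the levels used are pooled and carry no value per library. Gene bounds and starts were taken from GENCODE M21 on GRCm38, and GC and soft-masked share from the reference sequence.

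All 9 members were named, with per member the bin of highest level and the bin nearest the start, and other bins as they bore on a contrast, chosen after their values were seen. The members and the gene lists were chosen with earlier results of these data known. Alternatives are given in the closing section. Python 3.11.15, numpy 2.4.6 and pandas 2.3.3 were used. The input libraries were not used here.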

Additional observations from a re-analysis of the deposited data

How the results depend on the processing

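Without centring, 2 member bins were higher at 8 weeks past 1.5-fold in females, against 10.6% of all bins, and 16 of 26 in males, against 56.8% of all. The male median over members was then 0.75 in place of 0.12. Uncentred MO ratios put 4 of 21 bins lower in females, against 9.5% of all, and 6 of 20 higher in males, against 24.6% of all, with 0 lower and a male median of 0.52. At a 2-fold threshold the 3 counts of 1 became 0: higher at 8 weeks in females, lower with MO in females, and lower with MO in males. Over all bins the shares past 2-fold were 0.172%, 0.0075% and 0%. Of 11 female member bins above the median level 0 were higher and 1 lower at 8 weeks, against 3.14% and 2.19% of all. Alternatives added after seeing the data centred within deciles of level, alone or with GC: both gave 0 of 25 female bins higher at 8 weeks (1.46% and 1.47% of all) and 2 lower (1.23% and 1.01% of all), both of Insr (the intronic bin and the tandem array). Both also gave 2 of 21 lower with MO in females (0.97% and 0.937% of all), a Ppp1r3b and a Pck1 bin. The remote Insr bin ran from 0.45 to 0.85 in females and from 0.34 to 1.22 in males over the alternatives, the Ppp1r3b bin from -0.98 to -0.64 and the Igfbp1 bin from -0.90 to -0.28, the last without centring. The median age difference changed sign in females without centring (0.14) and in males with level and GC deciles (-0.02). The cause of these shifts was not tested. Matching bins by a 50% overlap gave as many bins and the same values as identical coordinates, so it is no separate check. With peaks matched whichever bin was listed, the age counts past 1.5-fold were unchanged. The age medians were then -0.02 in females and 0.08 in males. Scales fitted between tables left the MO counts unchanged, with medians of -0.12 in females and 0.08 in males. Bins in the gene or within 10 kb numbered 27, 40, 34, 23, 42 and 23 in control females, control males, females at 3 and 8 weeks and males at 3 and 8 weeks. Promoters within 1 kb held 10 bins in control males, 7 and 8 in females at 3 and 8 weeks and 10 in males at 3 weeks. No paired analysis was possible because the tables hold no value per library, and leaving out a replicate was not possible for the same reason.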
